A study of Mus musculus with 4 samples.

Results

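The osteopontin and insulin-like growth factor axis was taken as 8 genes, matched by symbol, of the 27999 genes in the deposited matrix: the ligand genes Spp1 and Igf1, the receptor gene Igf1r, and the binding-protein genes Igfbp2, Igfbp4, Igfbp5, Igfbp7 and Igfbpl1. All 8 were found. Osteopontin, the product of Spp1, is a secreted glycoprotein of the extracellular matrix that binds integrins and CD44. Insulin-like growth factor 1 binds a receptor tyrosine kinase, the product of Igf1r, which signals through the PI3K, AKT and mTOR and the MAP kinase pathways, and the IGF-binding proteins hold the ligand in the extracellular space and alter its access to the receptor. In the mouse retina, osteopontin is a known marker of alpha-type retinal ganglion cells (RGCs), the large projection neurons of the inner retina, and the pair of osteopontin and IGF1 has been studied for its effect on the regrowth of RGC axons.

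The single-cell libraries (10x Chromium 3′ V2) came, per the labels, from 4 retinas of 3-month-old C57BL/6 mice that carry a GFP reporter of Brn3b, also called Pou4f2, a transcription factor gene of many RGC types. All 4 belong to 1 group, dissociated and sorted for GFP, with no treatment and no GFP-negative library for comparison. The matrix pools them without a map from barcodes to retinas, so it was treated as 1 sample: no test between retinas was possible, and every interval below is a 95% interval that covers counting error only. The 3237 barcodes held 3198 to 53709 unique molecular identifiers (UMIs, 1 per captured transcript molecule), with a median of 7674.

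Barcodes were sorted into gates by UMI thresholds on genes outside the 8. The RGC gate (at least 1 Slc17a6 UMI, at least 3 of Rbpms and Slc17a6 together, and at most 1 of Lhx1) held 950 barcodes, 29.3% of all, with a median of 15852 UMIs. Within it, 148 barcodes had an Eomes UMI, 98 had at least 2 of Foxp2 and 168 had at least 20 of Cartpt. Eomes and Foxp2 encode transcription factors of particular RGC types, Eomes among them of the melanopsin cells that sense light directly, and Cartpt encodes a neuropeptide precursor of direction-selective RGCs. The subsets shared few barcodes: 2 between Eomes and Foxp2, 2 between Eomes and Cartpt and 3 between Foxp2 and Cartpt. The horizontal cell gate (at least 2 Lhx1 UMIs, no Slc17a6) held 456 barcodes, the Müller glia gate (at least 3 each of Rlbp1 and Slc1a3) 236, and the microglia gate (at least 20 of C1qa, C1qb and C1qc together) 192. Depth differed between these gates, with medians of 11082.5, 4676.5 and 4028.5 UMIs. Among barcodes in none of those gates, 698 bipolar (at least 2 Trpm1 UMIs), 124 amacrine, 134 cone and 12 endothelial barcodes served as further comparison.

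Each named gate had all markers of its own class at 2-fold or more over the median gate, among them 8 of 8 for RGCs, 6 of 6 for horizontal cells, 7 of 7 for Müller glia and 8 of 8 for microglia. Each list includes genes that define its gate, such as Slc17a6, Lhx1, Rlbp1 and C1qa, whose excess was fixed by the gating. Only the other genes of a list bear on the identity of its gate. This measure alone does not set a class apart, since some gates also met it in full for other lists. The microglia gate did so for 8 of 8 RGC and 6 of 6 bipolar markers, and the endothelial gate for 7 of 7 Müller markers. So did the cone gate for 6 of 6 rod, the bipolar gate for 6 of 6 cone and the Müller gate for 4 of 4 astrocyte markers. The microglia gate also carried the bipolar marker list at 2498 CPM (UMIs of the genes per 1000000 UMIs of the gate) and the Müller list at 6253 CPM, and the Müller gate carried the astrocyte list at 224 CPM. In all, 13 barcodes passed more than 1 of the 4 class gates, 8 of them RGC and microglia. Since the tissue was sorted and pooled, the shares of the gates describe these libraries and not the retina.

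The start regions of the 4 members that were at least 2-fold higher in Eomes RGC barcodes than in other RGC barcodes, as were 1.84% of all genes, are shown first, since Eomes itself encodes a T-box transcription factor. Each line gives the 250 bases before a RefSeq transcription start (build GRCm38.p6, 5′ to 3′ on the strand of the gene), and capitals mark the letters TATAAA or TTTAAA, variants of the TATA box.
Spp1, chr5:104434861-104435110, plus strand: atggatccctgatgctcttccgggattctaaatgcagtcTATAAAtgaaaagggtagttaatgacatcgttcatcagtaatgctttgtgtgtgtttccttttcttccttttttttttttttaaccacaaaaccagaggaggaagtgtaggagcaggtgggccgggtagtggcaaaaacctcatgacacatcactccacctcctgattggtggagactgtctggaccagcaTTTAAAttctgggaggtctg
Igf1, chr10:87860861-87861110, plus strand: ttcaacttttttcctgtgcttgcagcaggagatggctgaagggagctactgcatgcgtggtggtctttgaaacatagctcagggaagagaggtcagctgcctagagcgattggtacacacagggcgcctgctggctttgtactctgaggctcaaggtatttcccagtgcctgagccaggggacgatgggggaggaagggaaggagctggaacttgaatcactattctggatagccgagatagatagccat
Igfbp2, chr1:72824230-72824479, plus strand: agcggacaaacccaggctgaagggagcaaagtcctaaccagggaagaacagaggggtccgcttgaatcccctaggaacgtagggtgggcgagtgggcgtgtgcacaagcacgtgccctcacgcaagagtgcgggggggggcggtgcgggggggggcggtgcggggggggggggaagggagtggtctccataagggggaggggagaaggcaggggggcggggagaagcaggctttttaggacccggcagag
Igfbp5, chr1:72874866-72875115, minus strand: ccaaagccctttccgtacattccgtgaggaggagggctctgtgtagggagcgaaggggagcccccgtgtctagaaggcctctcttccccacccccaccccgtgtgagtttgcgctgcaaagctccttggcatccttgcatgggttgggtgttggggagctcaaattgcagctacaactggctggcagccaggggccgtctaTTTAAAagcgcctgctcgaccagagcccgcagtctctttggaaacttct

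RefSeq windows were found for 7 of the 8 members; Igfbpl1 had none. The letters GGTGTG, a core of the T-box motif, were searched on both strands, and so were TATAAA and TTTAAA, which can overlap each other only in part. Of 32851 RefSeq windows of the same length, 16.3% held GGTGTG, 12.4% held TATAAA and 12.1% held TTTAAA. None of the 4 windows printed held GGTGTG, while a second annotated start of Spp1 had it at base -92 and Igfbp4 had it at base -47 from the start. The printed Spp1 window held TTTAAA at base -20 and TATAAA at base -211, the Igfbp5 window held TTTAAA at base -49, and those of Igf1 and Igfbp2 held none of the 3. These are matches of letters only. On the mm10 annotation, Spp1 lies at chr5:104435118-104441050, Igf1 at chr10:87858265-87937042 and Igf1r at chr7:67952827-68233668, each on the plus strand. Igfbp2 (chr1:72824503-72852474, plus strand) and Igfbp5 (chr1:72857932-72874884, minus strand) are neighbours whose facing 3′ ends are 5457 bases apart. The other binding-protein genes lie at chr11:99041244-99054392 (Igfbp4, plus strand), chr5:77349240-77408041 (Igfbp7, minus strand) and chr4:45809468-45826923 (Igfbpl1, minus strand). Igf1 overlaps an antisense gene, Igf1os, with 2 UMIs in the matrix, and Igfbp7 overlaps Polr2b on the opposite strand; no source used here says if strand entered the counting.

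The ligand Spp1 was found almost entirely in RGC barcodes, which held 1126 of its 1172 UMIs (96.1%). Its level was 70.0 CPM (65.9 to 74.2) over the RGC gate and 365 CPM (342 to 389) in the Eomes subset, against 3.10 CPM in the Foxp2 subset and 6.52 CPM in the Cartpt subset. Horizontal, Müller, microglia and bipolar barcodes had 2.77, 3.35, 7.0 and 0.91 CPM. These last 4 gates and the Foxp2 subset were low without exception: no horizontal, Müller or Foxp2 barcode had more than 1 Spp1 UMI and no microglia barcode more than 2. Thinned to 12000 UMIs per barcode, a depth that 753 RGC and 149 horizontal barcodes reached, Spp1 was detected in 23.6% (16.4 to 32.1) of Eomes, 3.41% of Foxp2 and 5.23% of Cartpt barcodes, against 3.36% (1.10 to 7.66) of horizontal barcodes. The Foxp2 share and the Cartpt share lay within the interval of the horizontal cells, so they were not distinguishable from the horizontal share. How much of any of these shares was background RNA was not tested. In the Cartpt subset, however, 1 barcode had 9 Spp1 UMIs (40.9% of the 22 there) and 2 had 3 or more, a number that no horizontal barcode reached.

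**Figure D1:**
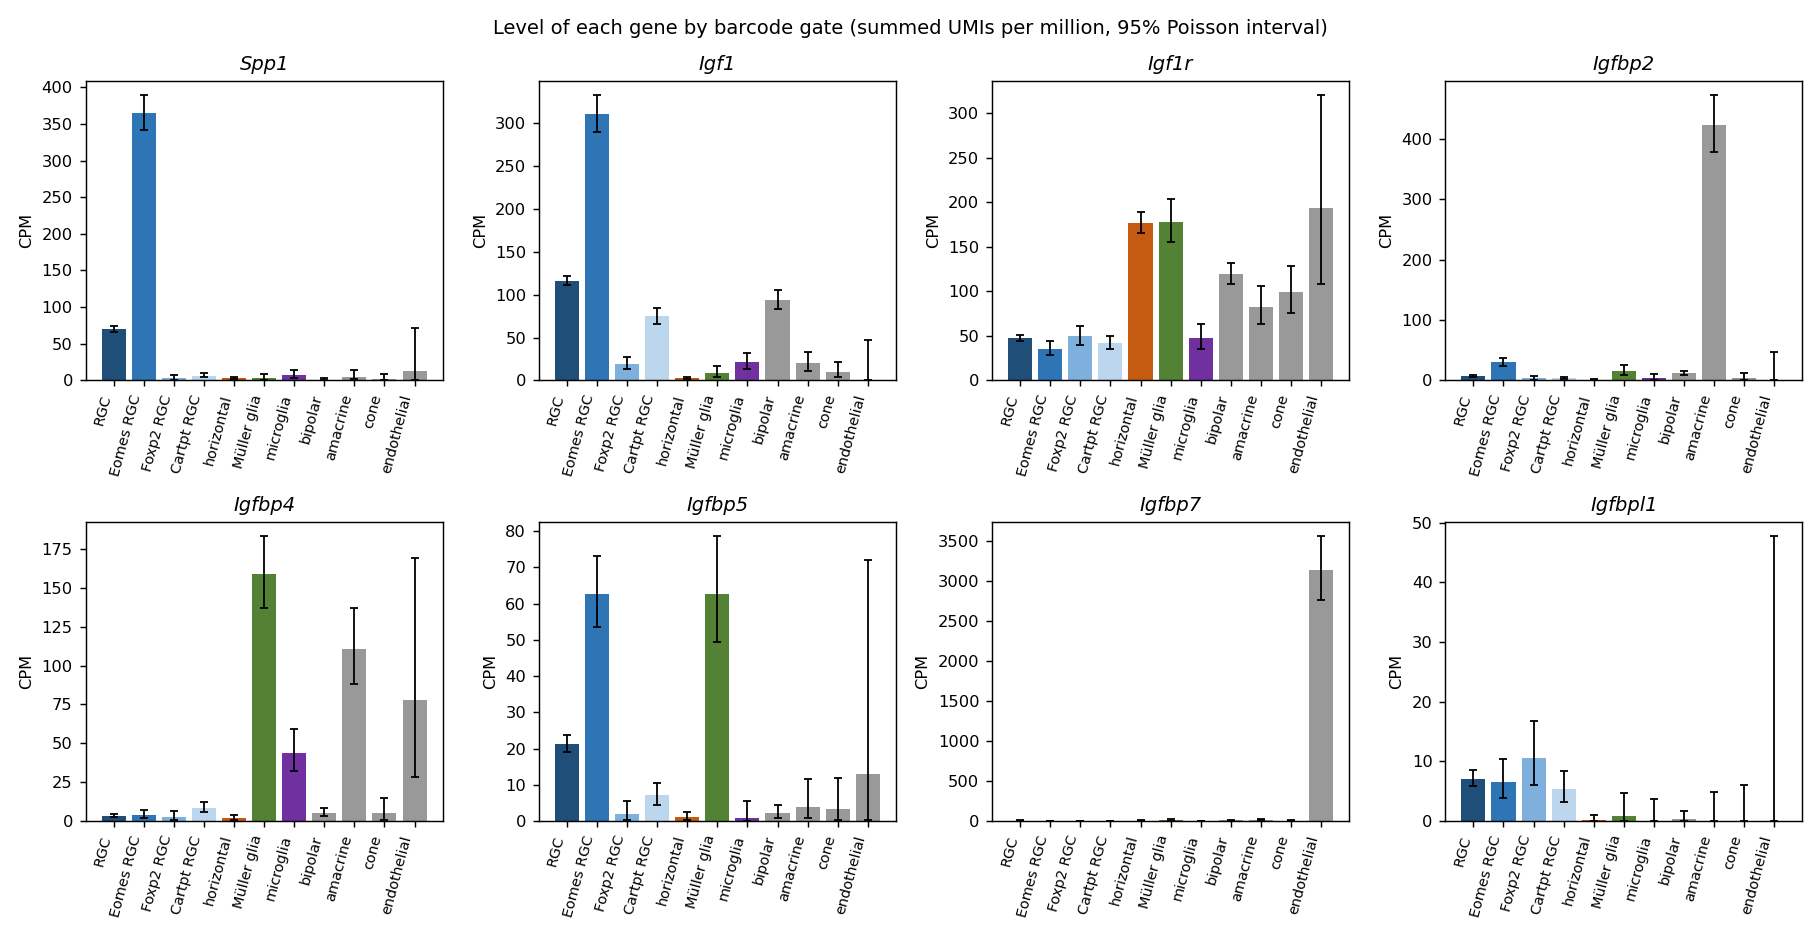
Level of each member in CPM, from summed UMIs, by barcode gate; bars are levels, error bars exact 95% Poisson intervals, and the grey gates were added for comparison. Spp1 and Igf1 peak in the Eomes subset at 365 and 311 CPM, Igf1r in horizontal, Müller and endothelial barcodes, Igfbp2 in amacrine barcodes at 423 CPM, and Igfbp7 in the 12 endothelial barcodes at 3146 CPM.

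Spp1 was concentrated in few RGC barcodes. Of the 950, 870 had no Spp1 UMI, 41 had 1, and 12 had 2 to 4. Another 10 had 5 to 15, and the remaining 17 had 21 to 121 with a median of 62. Those 17 held 84.9% of the Spp1 UMIs of the RGC gate, and 16 of them were in the Eomes subset. Most Eomes barcodes nevertheless had none: 115 of 148. The Spp1-rich barcodes were deep, with a median of 26428 UMIs against 15381 for RGC barcodes without Spp1, a difference whose part in the result was not tested; none of the 17 was called a doublet by Scrublet, and their summed C1q UMIs did not exceed 5.

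The 17 barcodes with at least 20 Spp1 UMIs carried several genes from a list of 9 markers of the alpha and melanopsin types. Opn4, the melanopsin gene, was detected in 16 with a median of 11 UMIs, the T-box gene Tbx20 in 15, Pou4f2 in 17, Kcng4, a potassium channel gene that marks alpha cells, in 10, and the heavy neurofilament gene Nefh in 16. Those 10 barcodes held 46.2% of the Kcng4 UMIs of the RGC gate. Pou4f2 was also in 59.1% of all RGC and 79.1% of Eomes barcodes, and none of these shares was matched for depth. The list did not rise as a whole. Between Eomes barcodes with at least 5 Spp1 UMIs and those with fewer, 1 of its 6 tested genes was 2-fold or more higher. Another 1 was lower, beside 1.42% and 2.6% of all genes. The single one of the 17 without an Eomes UMI was the deepest of them: it had 50256 UMIs in all, 89 of Spp1 and 4 each of Igf1 and Igf1r, and 0 of Opn4 and Tbx20. Since that barcode held 89 of the 177 Spp1 UMIs outside the Eomes subset, it lowered the ratio between the subsets.

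Spp1 was 27.8-fold higher (23.7 to 32.9) in Eomes than in the other RGC barcodes, with 949 UMIs over 148 barcodes against 177 over 802. On the log2 scale this is 4.80, and 5.62 with the barcode richest in Spp1 left out on each side. Over RGC barcodes at 12000 UMIs, the 8 genes whose log UMIs followed Spp1 most closely were Prph (Pearson r 0.52), Ctxn3 (0.47), 1700011I03Rik (0.46), Tbx20 (0.43), Ndnf (0.42), Opn4 (0.41), Vat1l (0.37) and Esrrg (0.36), among 8062 genes and 753 barcodes. These correlations are a description of barcodes from 1 pooled sample. Prph encodes the neurofilament protein peripherin and Esrrg an orphan nuclear receptor. Igf1 and Igfbp5 ranked 33rd and 34th, both at 0.25, and Igf1r lay at -0.06.

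The other ligand, Igf1, reached more RGC barcodes. It had 116 CPM (111 to 122) over the RGC gate, which held 79.4% of its 2356 UMIs, and 311 CPM (290 to 333) in the Eomes subset, 74.7 CPM in the Cartpt subset and 19.2 CPM in the Foxp2 subset. At 12000 UMIs, it was detected in 75.6% (67.0 to 82.9) of Eomes, 35.9% (28.4 to 44.1) of Cartpt and 12.5% (6.41 to 21.3) of Foxp2 barcodes, against 2.68% (0.74 to 6.73) of horizontal barcodes. The order Eomes, Cartpt, Foxp2 is separated by intervals that do not overlap. No barcode had more than 19 UMIs of Igf1, and its 10 richest RGC barcodes held 8.61% of its UMIs in the gate, where those of Spp1 held 65.4%. In the Foxp2 subset, 1 barcode with 14 UMIs made up 45.2% of the Igf1 signal, and the level without it was 10.7 CPM.

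Igf1 was 3.95-fold higher (3.60 to 4.33) in Eomes than in other RGC barcodes, 6.62-fold lower (4.65 to 9.77) in the Foxp2 subset and 1.69-fold lower (1.48 to 1.94) in the Cartpt subset. Within the Eomes subset it went with Opn4: Igf1 was detected in 64 of 65 Opn4 barcodes (98.5%, 91.7 to 99.96) and 29 of 58 without Opn4 (50%, 36.6 to 63.4) at 12000 UMIs. Outside it the shares were 9 of 20 (45%, 23.1 to 68.5) and 191 of 610 (31.3%, 27.6 to 35.2), whose intervals overlap. The 8 genes most similar to Igf1 over RGC barcodes were Ctxn3 (r 0.60), 1700011I03Rik (0.48), Opn4 (0.45), Cck (0.45), Nxph3 (0.43), Pcdh9 (0.42), Atp2b4 (0.42) and Prkcq (0.42). Opn4 is among them, so its split is not separate from that correlation. Cck encodes the neuropeptide cholecystokinin and Atp2b4 a calcium pump of the plasma membrane. Outside the Eomes subset, the leading gene was Whrn (r 0.50), which encodes the scaffold protein whirlin: 58 of 81 barcodes with Whrn had Igf1 (71.6%, 60.5 to 81.1), against 142 of 549 without it (25.9%, 22.2 to 29.7). This split was chosen after its correlation was seen.

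Bipolar barcodes were the other place with Igf1. They had 94.1 CPM (83.9 to 105), and 229 of 698 had a UMI (32.8%), none with more than 5. At 3000 UMIs per barcode, which all reached, 23.4% (20.3 to 26.7) of bipolar and 21.5% (18.9 to 24.2) of RGC barcodes had Igf1, against 0.88% of horizontal barcodes. No gene followed Igf1 closely among them, the highest r being 0.14. Müller and microglia barcodes had 9.20 and 21.0 CPM, but in each gate 1 barcode that also carried RGC markers held much of it: 63.6% in the Müller gate and 47.6% in the microglia gate. Without them the levels were 3.41 and 11.1 CPM.

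The receptor gene Igf1r differed from the ligands: it was detected in every gate, and RGC barcodes were among the lowest. The level was 47.9 CPM (44.6 to 51.4) over the RGC gate and 48.0 CPM (35.4 to 63.6) in microglia, against 177 CPM (166 to 189) in horizontal and 178 CPM (155 to 204) in Müller barcodes. The microglia gate carried the RGC marker list at 1188 CPM and the bipolar list at 2498 CPM, beside 9472 and 19579 CPM in those gates themselves. The microglial level of Igf1r was 32.0 CPM (20.7 to 47.2) without the microglia barcodes that had at least 2 Trpm1 UMIs, an alternative chosen after seeing the data. Bipolar barcodes had 120 CPM (108 to 132), cone barcodes 99.7 CPM (76.1 to 128) and amacrine barcodes 82.7 CPM (63.4 to 106). Endothelial barcodes had 194 CPM (109 to 320) from 15 UMIs. Neighbours in this order overlapped in their intervals except between Müller or horizontal and bipolar barcodes, whereas amacrine barcodes lay above the intervals of the RGC gate and only just reached that of microglia.

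Horizontal barcodes also lay above RGC barcodes in the share with Igf1r at a matched depth. Thinned to 12000 UMIs, Igf1r was found in 81.9% (74.7 to 87.7) of horizontal barcodes and 39.0% (35.5 to 42.6) of RGC barcodes. Full counts gave 84.6% and 51.8%. At 3000 UMIs, which microglia reached too, the shares were 42.8% (36.4 to 49.4) of Müller, 40.1% (35.6 to 44.8) of horizontal, 12.7% (10.7 to 15.03) of RGC and 8.33% (4.84 to 13.2) of microglia barcodes, the last 2 with overlapping intervals. Horizontal barcodes had 0 to 8 UMIs with a median of 2, and RGC barcodes 0 to 6 with a median of 1. The ratio to RGCs was 3.69 (3.35 to 4.07) for horizontal and 3.72 (3.18 to 4.33) for Müller barcodes.

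Within RGCs, Igf1r varied little between the subsets. It was at 35.8 CPM (28.9 to 43.8) with Eomes, 49.5 CPM (39.3 to 61.6) with Foxp2 and 42.4 CPM (35.7 to 49.9) with Cartpt, and these intervals overlap. Against the other RGC barcodes the Eomes subset was 1.41-fold lower (1.13 to 1.76), while the interval of the ratio included 1 for Foxp2 (0.81 to 1.31) and Cartpt (0.72 to 1.04). No gene had an r above 0.16 with Igf1r over RGC barcodes, and its r with Igf1 was 0.01.

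**Figure D2:**
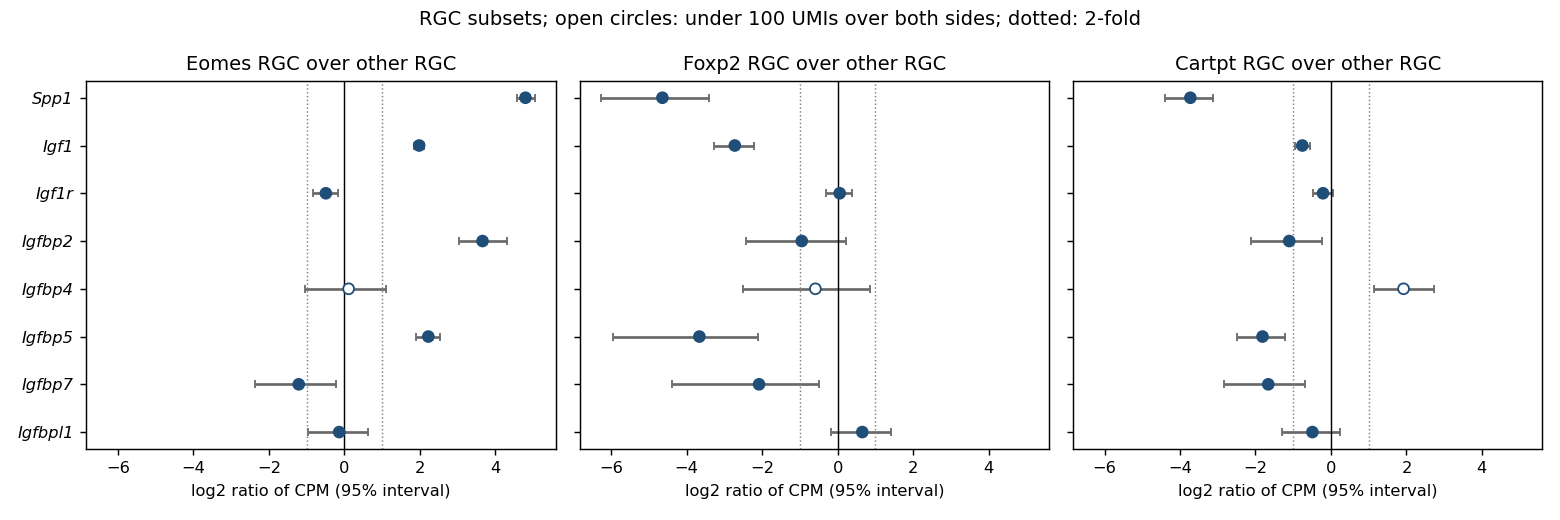
Log2 ratio of CPM between each RGC subset and the other RGC barcodes, by member; points are ratios, bars exact 95% intervals, open circles members with under 100 UMIs over both sides, and dotted lines mark 2-fold. Spp1, Igf1, Igfbp2 and Igfbp5 lie to the right of the 2-fold line in the Eomes panel, and Igf1r stays between the dotted lines in all 3 panels.

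Of the binding proteins, Igfbp5 followed Igf1 in RGCs, and Igfbp2 followed Spp1 in the Eomes subset. Igfbp5 had 62.7 CPM (53.4 to 73.1) in Eomes, 7.11 CPM in Cartpt and 1.86 CPM in Foxp2 barcodes, and was 4.67-fold higher (3.76 to 5.81) with Eomes than in other RGC barcodes. At 12000 UMIs, 36.6% of Eomes barcodes had it, against 1.34% of horizontal barcodes. Its most similar gene in RGCs was Igf1 (r 0.37, first of 8062 genes), also with the Eomes subset left out (r 0.35). Igfbp5 was detected in 72 of 293 RGC barcodes with Igf1 (24.6%, 19.8 to 29.9) and 22 of 460 without (4.78%, 3.02 to 7.15). Outside the Eomes subset it was 35 of 200 (17.5%, 12.5 to 23.5) and 14 of 430 (3.26%, 1.79 to 5.40). Inside the Eomes subset it was 37 of 93 (39.8%, 29.8 to 50.5) and 8 of 30 (26.7%, 12.3 to 45.9), with overlapping intervals. In the Cartpt subset it was 4 of 55 (7.27%) and 6 of 98 (6.12%).

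Igfbp2 had 6.84 CPM over the RGC gate. It was at 30.0 CPM (23.7 to 37.4) in Eomes barcodes and 2.37 CPM (1.62 to 3.35) in the other RGC barcodes, a 12.7-fold difference (8.28 to 19.7). Its most similar gene over all RGC barcodes was Spp1 (r 0.58, first of 8063). Outside the Eomes subset no such link was seen. There, at 12000 UMIs, Igfbp2 was in 1 of 33 barcodes with Spp1 (3.03%, 0.08 to 15.8) and 14 of 597 without (2.35%, 1.29 to 3.90). Among Eomes barcodes, 75 of the 78 Igfbp2 UMIs lay in the 21 with at least 5 Spp1 UMIs, where 17 had it with up to 9 UMIs, and 3 UMIs lay in the rest of the subset. The ratio of these levels was 87.5 with a wide interval (28.8 to 434). With 78 UMIs, Igfbp2 was under the minimum of 100 for a call. Over the same split Igfbp5 was 2.21-fold higher (1.58 to 3.05), the POU-domain gene Pou4f1 had 0.32 times the level, and Igf1 was at 341 against 302 CPM, a ratio of 1.13 (0.96 to 1.33). Over all 4154 genes with at least 100 UMIs there, 1.42% were 2-fold or more higher and 2.6% lower.

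Outside RGCs, Igfbp2 was a gene of amacrine barcodes, which held 59.7% of its 531 UMIs at 423 CPM (378 to 472). Of the 124 amacrine barcodes 51 had it (41.1%), with up to 23 UMIs. Igfbp5 and Igfbp2 were also counted in the Müller gate, at 62.8 and 15.9 CPM, but 4 barcodes held 88.0% of the Igfbp5 UMIs there, and these carried 22 to 70 UMIs of the astrocyte marker list. With the 5 Müller barcodes that had at least 10 such UMIs left out, a choice made after seeing the data, the log2 ratio to RGCs went from 1.55 to -1.44 for Igfbp5 and from 1.22 to -2.97 for Igfbp2.

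Igfbp4 had its highest levels in Müller and amacrine barcodes. Müller barcodes had 159 CPM (137 to 183) with a UMI in 54.7%, amacrine barcodes 111 CPM (88.2 to 137) and microglia 44.0 CPM (32.0 to 59.1), against 3.60 CPM (2.74 to 4.66) in RGCs. That made it 44.1-fold (32.7 to 60.3) and 12.2-fold (8.06 to 18.4) higher than RGCs in Müller and microglia barcodes. Endothelial barcodes had 77.7 CPM (28.5 to 169), from 6 UMIs in 4 of 12 barcodes. In the amacrine gate 18 of 124 barcodes had Igfbp4 (14.5%), and the 10 richest held 80.7% of its UMIs there. The microglia gate's Müller marker list stood at 6253 CPM beside 34581 CPM in the Müller gate, and its part in the microglial Igfbp4 was not tested. In RGCs as a whole the share with Igfbp4 at 12000 UMIs, 3.98%, was no higher than the 4.03% of horizontal barcodes, but 9.15% (5.09 to 14.9) of Cartpt barcodes had it. In the Cartpt subset it was at 8.60 CPM, 3.79-fold (2.19 to 6.58) over other RGC barcodes, from 29 UMIs on each side.

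Igfbp7 was a vascular gene here: the 12 endothelial barcodes held 41.5% of its UMIs at 3146 CPM, and 11 of the 12 had it, with up to 37 UMIs. In the RGC gate it had 7.27 CPM, but 2 barcodes with 48 and 24 UMIs held most of that, and those carried 104 and 73 UMIs of the endothelial marker list and 5 each of the RGC list. At 12000 UMIs, 2.79% of RGC barcodes had Igfbp7, below the 10.7% of horizontal barcodes. Its 2-fold or larger deficits in the RGC subsets and in microglia rest on those barcodes. Without the 11 RGC barcodes that had at least 5 endothelial UMIs, the log2 ratio turned from -1.21 to 0.45 for Eomes and from -1.66 to 0.11 for Cartpt, and went from -2.08 to -0.41 for Foxp2 and from -1.86 to -0.27 for microglia. The same step took the ratio to RGCs from -0.25 to 1.35 in horizontal and from 0.79 to 2.38 in Müller barcodes, from 31 and 15 UMIs of Igfbp7.

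Igfbpl1, which encodes a protein related to the IGF-binding proteins, was an RGC transcript at a low level. The RGC gate held 114 of its 121 UMIs (94.2%), at 7.08 CPM (5.84 to 8.51), and no barcode had more than 4. Horizontal and Müller barcodes had 1 UMI each. None was seen in 192 microglia barcodes, which allows a share of up to 1.90% of barcodes with a UMI. By the exact interval of the ratio, its level was at least 1.89-fold lower there than in RGCs. The subsets were alike within their intervals, at 6.54 CPM (3.81 to 10.5) with Eomes, 10.5 CPM (6.13 to 16.9) with Foxp2 and 5.34 CPM (3.16 to 8.43) with Cartpt. Its closest gene was the T-box gene Tbr1 (r 0.30): 19 of 74 RGC barcodes with Tbr1 had Igfbpl1 (25.7%, 16.2 to 37.2), against 31 of 679 without it (4.57%, 3.12 to 6.42), a split that restates the correlation and was chosen after it was seen. In the Eomes subset Igfbpl1 and Igf1 seldom met: at full counts Igfbpl1 was in 2 of 119 barcodes with Igf1 (1.68%, 0.20 to 5.94) and 10 of 29 without (34.5%, 17.9 to 54.3). At 12000 UMIs it was in 0 of 93 with Igf1, which allows a share of up to 3.89%, and in 6 of 30 without (20%, 7.71 to 38.6).

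Counted together, 4 of the 7 members with at least 100 UMIs were 2-fold or more higher in Eomes barcodes (Spp1, Igf1, Igfbp2 and Igfbp5), where 1.84% of all 9752 such genes were, and 1 was lower (Igfbp7), where 2.7% were. The median log2 ratio was 1.98 over the members and -0.02 over all genes. In the Foxp2 subset 0 of 7 were higher and 4 lower (Spp1, Igf1, Igfbp5 and Igfbp7), beside 0.667% and 3.63% of all genes. In the Cartpt subset it was again 0 and 4 (Spp1, Igfbp2, Igfbp5 and Igfbp7), beside 0.564% and 1.91%. The 3 comparisons share most of their reference barcodes, and the Eomes barcodes are among the reference of the other subsets. Every member called lower in the Foxp2 or Cartpt subset reached 100 UMIs only through the reference barcodes. In the Eomes comparison Igfbp2 reached 100 UMIs only through the Eomes barcodes, with 78 UMIs there and 32 in the others. Igfbp7 reached it only through the RGC barcodes that had at least 5 endothelial UMIs. Without those, Igfbp7 had 8 UMIs with Eomes and 30 in the other RGC barcodes.

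Against RGCs, horizontal barcodes had 1 of 7 members higher (Igf1r), where 8.79% of 10401 genes were, and 5 lower (Spp1, Igf1, Igfbp2, Igfbp5 and Igfbpl1), where 18.8% were. Müller barcodes had 4 of 8 higher (Igf1r, Igfbp2, Igfbp4 and Igfbp5), beside 13.8% of all genes, and 3 lower (Spp1, Igf1 and Igfbpl1), beside 28.8%; with the astrocyte-marked barcodes left out the counts were 2 and 5. Microglia had 1 higher (Igfbp4), beside 12.5%, and 5 lower (Spp1, Igf1, Igfbp5, Igfbp7 and Igfbpl1), beside 33.6%. The median log2 ratio of all genes was -0.12, -0.32 and -0.51 in these 3 comparisons, so a ratio near 0 in Müller glia or microglia is above that of the typical gene.

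Co-detection was read at 12000 UMIs, since a deeper barcode is more likely to show any gene. Of the 753 RGC barcodes, 62 had Spp1, 293 had Igf1 and 294 had Igf1r. Spp1 and Igf1 met in 41 barcodes, where the product of the separate shares gives 24.1. Spp1 and Igf1r met in 25, beside a product of 24.2, and Igf1 and Igf1r in 117, beside 114. All 3 were found in 13 barcodes (1.73%, 0.92 to 2.93), beside 9.42.

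**Figure D3:**
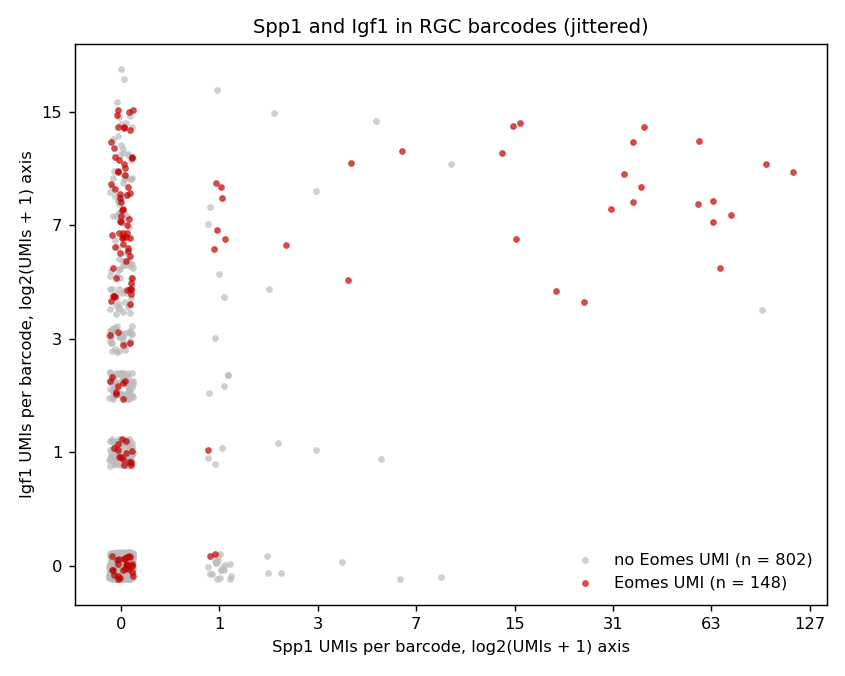
UMIs of Spp1 (x) and Igf1 (y) in each of the 950 RGC barcodes on log2(UMIs + 1) axes with a small random shift, coloured by whether the barcode had an Eomes UMI. All 17 barcodes with at least 20 Spp1 UMIs have 4 to 13 Igf1 UMIs, while many Eomes barcodes have Igf1 without Spp1.

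Levels were taken from the full counts of the same barcodes, split by Spp1 at 12000 UMIs. Of the 5 other members with at least 100 UMIs, 3 were 2-fold or more higher in the 62 barcodes with Spp1 than in the 691 without. They were Igf1 (2.10-fold), Igfbp2 (20.6-fold) and Igfbp5 (3.82-fold), where 1.11% of 9458 genes were higher. Lower were 0, where 1.76% of genes were. Igfbp2 reached 100 UMIs only through the barcodes with Spp1, with 77 UMIs there and 32 in the others. Igf1 was detected in 66.1% (53.0 to 77.7) of RGC barcodes with Spp1 and 36.5% (32.9 to 40.2) of those without. Inside the Eomes subset the shares were 27 of 29 (93.1%, 77.2 to 99.2) and 66 of 94 (70.2%, 59.9 to 79.2), whose intervals overlap. Outside it they were 14 of 33 (42.4%, 25.5 to 60.8) and 186 of 597 (31.2%, 27.5 to 35.0), which overlap too. All of the 17 Spp1-rich barcodes had Igf1, with 4 to 13 UMIs and a median of 8. In the other direction most Igf1 barcodes lacked Spp1, 252 of 293.

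Igf1r showed no such difference: 25 of 62 barcodes with Spp1 had it (40.3%, 28.1 to 53.6), against 269 of 691 without (38.9%, 35.3 to 42.7). The point values went opposite ways inside and outside the Eomes subset, at 6 of 29 against 31 of 94 with Eomes (20.7% and 33.0%) and 19 of 33 against 238 of 597 without Eomes (57.6% and 39.9%), with overlapping intervals in each. Of the 17 Spp1-rich barcodes 10 had an Igf1r UMI at full depth. Igfbp2 was detected in 16 of 29 Eomes barcodes with Spp1 (55.2%, 35.7 to 73.6) and 1 of 94 without (1.06%, 0.03 to 5.79). Igfbp5 was in 15 of 29 (51.7%, 32.5 to 70.6) and 30 of 94 (31.9%, 22.7 to 42.3).

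**Figure D4:**
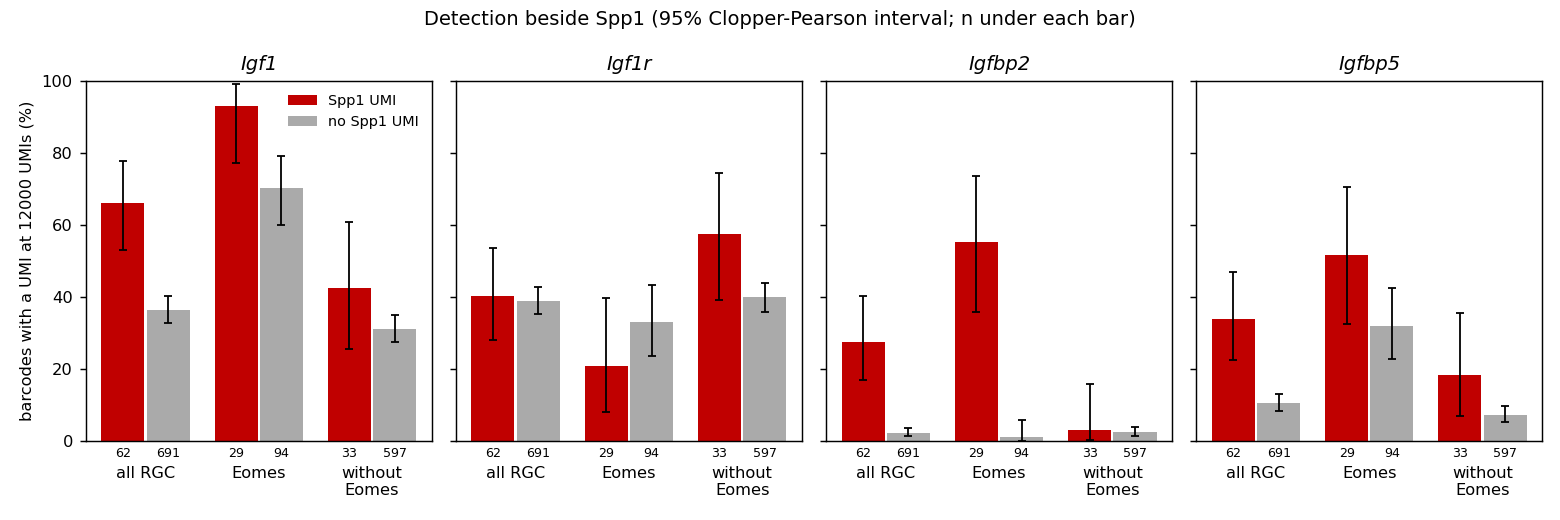
Share of RGC barcodes with a UMI of Igf1, Igf1r, Igfbp2 or Igfbp5 at 12000 UMIs, in barcodes with (red) and without (grey) a Spp1 UMI, for all RGCs and inside and outside the Eomes subset; error bars are 95% Clopper-Pearson intervals and the number of barcodes stands under each bar. The Igfbp2 bars differ most, at 55.2% and 1.06% in the Eomes subset, and the Igf1r bars over all RGCs are nearly level at 40.3% and 38.9%.

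Other genes of the pathway were taken from lists. Of 29 genes that act below the IGF1 receptor, 27 had at least 100 UMIs in each comparison of gates. Within RGCs they hardly differed: 1 of 27 was 2-fold lower with Eomes and with Cartpt, in each case Eif4ebp1, a repressor of translation under mTOR control (0.30 times the level in both), and 0 were higher. With Foxp2 it was 0 in either direction. Horizontal barcodes had 0 higher and 1 lower, Pik3cb at 0.32 times. Müller glia had 4 higher, namely Pik3r1 (5.52-fold), Shc1 (3.91), Akt2 (2.96) and Foxo3 (2.84), and 8 lower, among them Rheb at 0.36 times; these counts are near the 13.8% and 28.8% of all genes. The kinase gene Akt2 was at 20.6 CPM in RGCs and 61.1 CPM in Müller glia. Microglia had 3 higher, Pik3r1 (9.92-fold), Eif4ebp1 (5.13) and Shc1 (3.44), and 7 lower, no larger a share in either direction than the 12.5% and 33.6% of all genes. The medians over the 27 were 0.01, -0.04, -0.07, -0.24, -0.41 and -0.31 on the log2 scale for the Eomes, Foxp2, Cartpt, horizontal, Müller and microglia comparisons.

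Among the other members of the insulin family, Igf2 had 1 UMI in the RGC gate and 29 in the Müller gate, and the insulin receptor gene Insr was at 13.3 CPM in RGCs and 43.5 CPM in Müller glia, a 3.27-fold difference (2.37 to 4.45). The mannose 6-phosphate receptor gene Igf2r, whose product clears IGF2, was 2.37-fold higher (1.74 to 3.22) in horizontal barcodes. Htra1, which encodes a secreted protease that cleaves IGF-binding proteins, was at 313 CPM in Müller glia and 10.3 CPM in RGCs.

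Genes of the osteopontin receptors differed between the gates one by one. Itgb5, an integrin beta subunit gene, was at 284 CPM in horizontal barcodes and 327 CPM in microglia, against 4.78 CPM in RGCs, which is 59.4-fold (47.3 to 75.8) and 68.3-fold (53.2 to 88.8) higher. Its partner subunit gene Itgav was 8.24-fold higher (6.64 to 10.2) in Müller glia, 3.34-fold (2.78 to 4.02) in horizontal barcodes and 2.36-fold (1.59 to 3.39) in microglia. Müller glia had Cd44, the gene of the other osteopontin receptor, at 72.0 CPM against 1.99 CPM in RGCs, and Itgb8 at 82.8 CPM from 99 UMIs against 3 UMIs in the whole RGC gate. Of 11 receptor genes, 7 had enough UMIs for a call in Müller glia. Cd44 and Itgb8 were among them only through their Müller UMIs, so only a higher level could be called for them. Of the 7, 5 were 2-fold or more higher in Müller glia and 1 lower, beside 13.8% and 28.8% of all genes. In horizontal barcodes 2 of 5 were higher and 3 lower, beside 8.79% and 18.8%, with a median log2 ratio of -1.02, and in microglia 2 of 5 were higher and 1 lower, beside 12.5% and 33.6%. In RGCs the leading one was Itgb1 at 29.3 CPM. In the Eomes subset, which held most Spp1, 1 of 4 receptor genes passed 2-fold: Itgav was 0.33 times the level of other RGC barcodes.

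**Figure D5:**
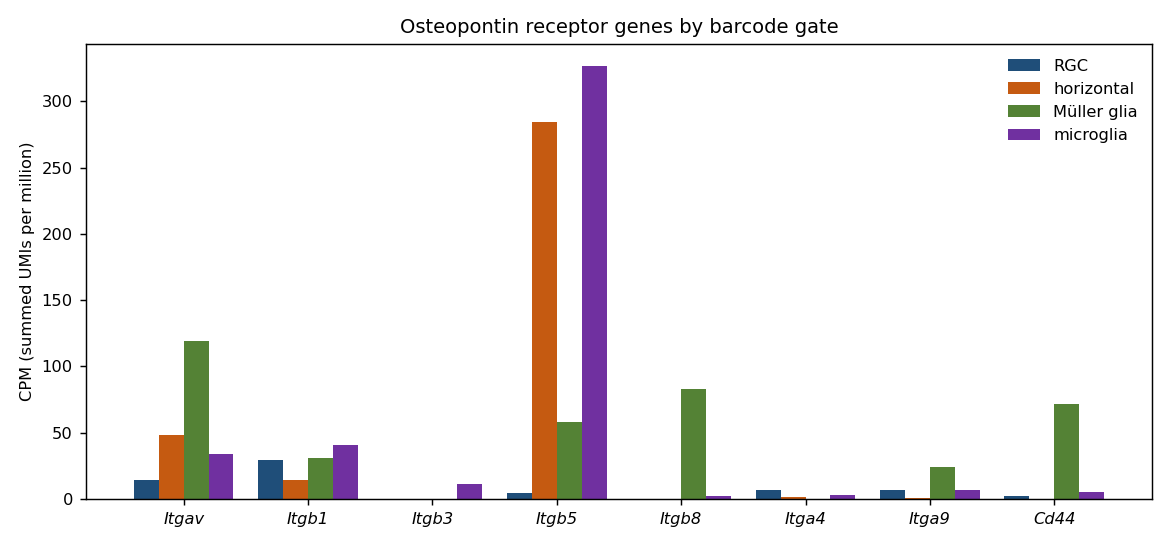
Levels in CPM of 8 osteopontin receptor genes (integrin subunits and Cd44) in RGC, horizontal, Müller glia and microglia barcodes; bars are levels of summed UMIs, without error bars. Itgb5 reaches 284 and 327 CPM in horizontal and microglia barcodes, and Itgav, Itgb8, Itga9 and Cd44 have their highest bars in Müller glia.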

How the data were processed

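The authors deposited 1 matrix of counts, whole numbers of UMIs per gene and barcode; Cell Ranger (no version), Seurat 2.2 and the build mm10 are named per the submitters' processing notes. How barcodes were called as cells is not given in the sources used here. No gene or barcode was filtered. Python 3.11.15, numpy 2.4.6 and scipy 1.17.1 summed counts per gate and scaled them to CPM, with exact Poisson intervals, exact conditional intervals for ratios and Clopper-Pearson intervals for shares, all at 95%. The gene or genes of a subset's gate were left out of its totals. A gene was counted as different at 2-fold or more if it had at least 100 UMIs over both sides, and the share of all such genes stands beside the members' count. For a count of 0, the bound given is the limit of the exact interval. Barcodes were thinned without replacement (seed 0) to 3000 UMIs, or to 12000 for RGCs, where 197 shallower RGC barcodes were left out. The text names all 8 members, the pathway genes past 2-fold, in part by count, and the 8 genes with the highest Pearson r of log(UMIs + 1) to a member. Doublets were kept; Scrublet (scanpy 1.11.5) called 58 barcodes (1.79%), and their removal was an alternative. Further alternatives were mitochondrial filters, other gates and thinning depths, leaving out the richest barcode, and 3 sets of barcodes with markers of another type, chosen after seeing the data. The comparison was tested on simulated data. Members and lists were chosen with earlier results of these data known. Levels come from 3′ tags, and no level was compared between genes. Gene positions are from GENCODE, promoters from RefSeq.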

Additional observations from a re-analysis of the deposited data

How the results depend on the processing

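Over 13 settings for ratios and 11 for levels, 543 of 602 log2 ratios and 563 of 616 CPM values stayed within 1.5-fold or within the reported counting interval. Another 54 and 53 moved, and 5 ratios reversed. These totals include results that a setting could not change, so they overstate the stability. Examples are the ratios under the minimum of 20 UMIs and the Müller levels when only RGC barcodes were left out. The log2 ratio of Igfbp7 in Eomes barcodes became 0.37 with the RGC gate at 5 UMIs and 0.45 without endothelial-marked barcodes, which also took Igfbp7 in Cartpt barcodes to 0.11. Without astrocyte-marked Müller barcodes Igfbp2 was at -2.97 and Igfbp5 at -1.44, and the Müller count became 2 higher and 5 lower. The count of members higher in microglia became 0 under both mitochondrial filters and without barcodes of several gates, doublets, the richest barcode, Trpm1-marked microglia or endothelial-marked RGCs. Igfbp4 has only 44 and 58 UMIs there and then fell under 100, while its log2 ratio stayed between 3.40 and 3.85. The count lower with Eomes became 0 with the RGC gate at 5, without the richest barcode or without endothelial-marked barcodes, the count lower with Cartpt 2 without the richest barcode, as fewer members were then tested, and the count higher with Cartpt 1 with a minimum of 20 UMIs. At 6000 UMIs Igf1 was in 26.7% of RGC barcodes without Spp1 and Igf1r in 25.0% with and 24.7% without it. Full counts gave Igf1r in 63.8% and 50.7%. With Spp1 counted from 3 UMIs, Igf1 was in 92.3% and Igf1r in 26.9% of Spp1 barcodes. No paired analysis was possible because no barcode is tied to a retina, and for the same reason no retina could be left out.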

Other observations

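Among the 124 amacrine barcodes, Igfbp4 and Igfbp2 were found in the same barcodes: Igfbp4 was in 16 of 51 with Igfbp2 (31.4%, 19.1 to 45.9) and 2 of 73 without (2.74%, 0.33 to 9.55). Thinned to 3000 UMIs, Igfbp2 was the gene most like Igfbp4 there (r 0.52 over 124 barcodes and 555 genes), and the leading genes for Igfbp2 were Nptx2 (0.55), which encodes a secreted pentraxin of synapses, and the homeobox gene Meis2 (0.52). Meis2 was in 50 of the 51 amacrine barcodes with Igfbp2 and 22 of the 73 without. In RGC barcodes Igfbp4 went with the transcription factor gene Neurod2: at 12000 UMIs it was in 14 of 103 barcodes with Neurod2 (13.6%, 7.63 to 21.8) and 16 of 650 without (2.46%, 1.41 to 3.97). These splits were chosen after their correlations were seen.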
